A study of Mus musculus with 23 samples.

Results

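A set of 7 genes of cholesterol synthesis and its feedback control were followed across the mouse endometrium: Hmgcs1, Idi1, Fdps, Sqle, Lss, Cyp51 and Insig1. They were chosen by name as targets of the transcription factor SREBP2, with earlier results of these data known. They make up 7 of the 18682 features in the count table. The first 6 are enzymes of the pathway and Insig1 is a regulator of it. None of the 7 takes up cholesterol; uptake was read from a wider list of pathway genes described after them.

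The study measured RNA in the endometrium of 23 uterine horns of female C57BL/6 mice. In the model, the uterus was injured with ethanol of 70 degrees, and 4 days later the horns were injected. Tissue was taken 2 weeks after the injection. The labels name 4 groups: SHAM (n = 6 horns, replicates 1 to 6), PBS, a saline buffer (n = 5, replicates 7 to 11), HG, the hydrogel alone (n = 6, replicates 12 to 17), and HG+ORG, the hydrogel injected with human endometrial organoids (n = 6, replicates 18 to 23). The organoids are cultures of human cells, and the host mice were immunocompetent. The sources do not say what the SHAM horns received, nor how old the mice were. The endometrium was pressed out of each horn, which leaves variable amounts of muscle and other layers, and poly(A) RNA was sequenced. The labels do not tie horns to mice. The design gives 21 mice for the tissue analyses, fewer than the 23 horns, so some horns may share a mouse, and the p-values below measure the spread between horns.

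Cells make cholesterol from acetyl-CoA in a long chain of enzymes: early steps build mevalonate and the isoprenoid units, later steps join them into squalene, close the sterol rings and trim lanosterol to cholesterol. When sterols in the endoplasmic reticulum run low, the escort protein SCAP carries SREBP2 to the Golgi, where it is cut and freed to switch on nearly all of these enzymes and the uptake of cholesterol. When sterols are plentiful, INSIG1 holds SCAP back, and LXR receptors switch on genes that export cholesterol. In a uterus, cholesterol serves membranes of dividing and secreting cells.

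SREBP2 acts at promoters, together with the factors NF-Y and Sp1, so the promoters of the genes were read for the letters these factors are known to bind. RefSeq promoter sequences (build GRCm38.p6) were at hand for 5 of the 7 genes: Hmgcs1 (chr13:119690101-119690350, plus strand), Idi1 (chr13:8885356-8885605, plus strand), Lss (chr10:76531355-76531604, plus strand), Cyp51 (chr5:4104698-4104947, minus strand) and Insig1 (chr5:28071162-28071411, plus strand). Each is the 250 bases before the gene's start, 5′ to 3′ on the gene's own strand. Capitals mark the NF-Y letters CCAAT, or ATTGG where they lie on the other strand, and the sterol regulatory element TCACNCCAC. Fdps and Sqle had no entry.
Hmgcs1: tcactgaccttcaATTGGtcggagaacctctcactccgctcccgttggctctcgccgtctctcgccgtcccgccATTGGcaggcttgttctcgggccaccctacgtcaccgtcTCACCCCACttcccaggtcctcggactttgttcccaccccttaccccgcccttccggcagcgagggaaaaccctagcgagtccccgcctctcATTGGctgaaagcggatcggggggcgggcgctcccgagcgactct
Idi1: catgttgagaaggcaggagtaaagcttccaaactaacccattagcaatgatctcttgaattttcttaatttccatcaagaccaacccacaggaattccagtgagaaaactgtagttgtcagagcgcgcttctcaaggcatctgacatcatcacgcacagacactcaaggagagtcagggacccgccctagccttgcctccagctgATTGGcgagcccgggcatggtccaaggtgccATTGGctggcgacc
Lss: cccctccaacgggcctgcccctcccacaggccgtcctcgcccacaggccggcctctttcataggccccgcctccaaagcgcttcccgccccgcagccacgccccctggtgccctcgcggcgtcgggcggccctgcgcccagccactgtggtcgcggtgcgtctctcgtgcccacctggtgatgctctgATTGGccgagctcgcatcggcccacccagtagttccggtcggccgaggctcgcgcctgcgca
Cyp51: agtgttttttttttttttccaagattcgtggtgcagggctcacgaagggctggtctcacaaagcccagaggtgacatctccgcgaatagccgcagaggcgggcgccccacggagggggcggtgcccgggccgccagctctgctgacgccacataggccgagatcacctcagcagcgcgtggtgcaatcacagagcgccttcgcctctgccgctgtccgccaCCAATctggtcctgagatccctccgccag
Insig1: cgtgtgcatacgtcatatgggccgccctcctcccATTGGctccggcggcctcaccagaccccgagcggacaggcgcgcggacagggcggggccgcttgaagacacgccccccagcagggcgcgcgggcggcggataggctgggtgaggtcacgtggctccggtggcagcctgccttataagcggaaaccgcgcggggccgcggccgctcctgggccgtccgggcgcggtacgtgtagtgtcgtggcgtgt
The sterol regulatory element TCACNCCAC was in 1 of the 5 windows, that of Hmgcs1, where it spans the bases 137 to 129 before the start. On either strand it was in 1.04% of 27025 windows of the same length, 1 per gene. CCAAT was in 5 of 5 windows, against 34.5% of all, and the Sp1 letters GGGCGG were in 5 of 5, against 32.9%. Both together were in 5 of 5, against 11.4%. Of 11 windows for other sterol enzymes, 9 had CCAAT, 10 had GGGCGG, 8 had both and 0 had TCACNCCAC. A match of letters is a description and no measured binding, and motifs that differ from these letters were not searched.

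The libraries held 7920918 (SHAM 4) to 14902952 counts, with a median of 12701407. Mitochondrially encoded genes took 1.50% to 11.4% of the counts. All 7 genes passed the filter on low counts, with 17708 genes tested in all. Every epithelial marker on the list used (10 of 10) was present in the table, and the epithelial score, the mean log2 CPM of those markers, was 8.35 to 9.65 in the SHAM and PBS horns. HG+ORG 18 stood apart: its epithelial score was 5.80, the lowest of 23 horns, and its macrophage and neutrophil scores of 9.51 and 8.56 were the highest.

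Levels are given as log2 CPM, the log2 of a gene’s count scaled to library size (CPM), with 2 prior counts added, so that 1 unit is a 2-fold step. Per kilobase of exon, Cyp51 and Hmgcs1 had the highest level, with means over 23 horns of 27.2 and 24.8 CPM per kilobase. Insig1 (13.8), Fdps (12.7) and Sqle (12.5) were in the middle, and Lss (1.85) and Idi1 (1.05) were lowest. The lengths are unions of GENCODE M21 exons, on another build than the counts, so this order is approximate. Idi1 rested on 3 to 149 counts per horn. Each of the others had at least 89.

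Hmgcs1 joins acetyl-CoA to acetoacetyl-CoA, an early step of the mevalonate pathway. Its log2 CPM was lowest at 6.76, median 6.95 and highest at 8.26 in SHAM, the highest being SHAM 4. In PBS the 5 horns had 6.71, 6.14, 6.44, 6.93 and 6.70 (replicates 7 to 11). In HG the lowest, median and highest were 5.15, 6.57 and 7.84, and in HG+ORG they were 5.95, 6.45 and 6.80. SHAM 4 stood well above the next SHAM horn at 7.12, and HG spanned the widest range. Below every SHAM horn lay 4 of 5 PBS, 4 of 6 HG and 5 of 6 HG+ORG horns. For this gene and those that follow, the share of all genes with such counts was not computed.

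Idi1 interconverts both isoprenoid building units. Its log2 CPM in SHAM was lowest at 0.92, median 2.13 and highest at 4.21. The PBS horns had 0.79, 0.93, 0.75, 2.50 and 0.83, so PBS 10 stood alone above the other 4. In HG the values ran from -0.19 over a median of 1.37 to 3.34, and in HG+ORG from -0.92 over 0.84 to 1.38. Below every SHAM horn lay 3 of 5 PBS, 3 of 6 HG and 4 of 6 HG+ORG horns, and the lowest, HG+ORG 18, had 3 counts.

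Fdps makes farnesyl diphosphate, the branch point to sterols and to lipid anchors of proteins. Its log2 CPM in SHAM was lowest at 4.86, median 5.65 and highest at 7.96. In PBS the horns had 4.47, 4.80, 4.76, 5.86 and 4.73. HG ran from 4.40 over a median of 4.86 to 7.53, and HG+ORG from 4.55 over 4.87 to 5.51. Of the PBS horns 4 of 5, of the HG horns 3 of 6, and of the HG+ORG horns 3 of 6 lay below every SHAM horn. Both Fdps and Idi1 have processed pseudogenes that could share their reads: Gm3571 is 98.9% identical to Fdps over 1062 bases and was counted 49 to 304 times per horn, and Gm13502 is identical to Idi1 over 684 bases and was counted 0 to 45 times. The values of these 2 genes are therefore uncertain.

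Sqle oxidises squalene, the first oxygen-requiring step and a slow one. Its log2 CPM in SHAM was lowest at 5.62, median 6.28 and highest at 8.06. For PBS the values were 5.07, 5.20, 5.73, 6.78 and 5.40. HG ran from 3.72 over a median of 5.69 to 7.47, and HG+ORG from 4.20 over 5.44 to 5.64. Of the HG+ORG horns, 5 of 6 lay below every SHAM horn, as did 3 of 5 PBS and 3 of 6 HG horns.

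Lss closes the sterol rings to give lanosterol. Its log2 CPM in SHAM was lowest at 2.87, median 4.32 and highest at 6.40. The 5 PBS horns had 3.05, 3.73, 3.21, 4.66 and 3.20. HG ran from 3.18 over a median of 4.09 to 5.79, and HG+ORG from 3.02 over 3.44 to 4.05. Lss differed from the others in that 0 horns of any injured group lay below SHAM 1, which was the lowest of all 23 horns.

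Cyp51 demethylates lanosterol. Its log2 CPM in SHAM was lowest at 6.97, median 7.19 and highest at 8.21. The PBS horns had 6.50, 5.91, 6.53, 7.25 and 6.90. HG ran from 5.26 over a median of 6.80 to 7.84, and HG+ORG from 4.89 over 6.12 to 7.08. Here 4 of 5 PBS horns, 4 of 6 HG horns and 5 of 6 HG+ORG horns lay below every SHAM horn.

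Insig1, the sterol-sensing brake and itself an SREBP target, had a SHAM log2 CPM of 4.32 at its lowest, 5.77 at the median and 6.95 at its highest. The PBS horns had 4.16, 4.93, 4.49, 6.17 and 4.13. HG ran from 3.78 over a median of 5.73 to 6.74. HG+ORG was the tightest group, from 4.02 over 4.44 to 4.65. Below every SHAM horn lay 2 of 5 PBS, 2 of 6 HG and 2 of 6 HG+ORG horns. The HG group split: HG 12, HG 13 and HG 16 had 6.74, 6.54 and 6.41, and the other 3 horns lay between 3.78 and 5.05.

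**Figure D1:**
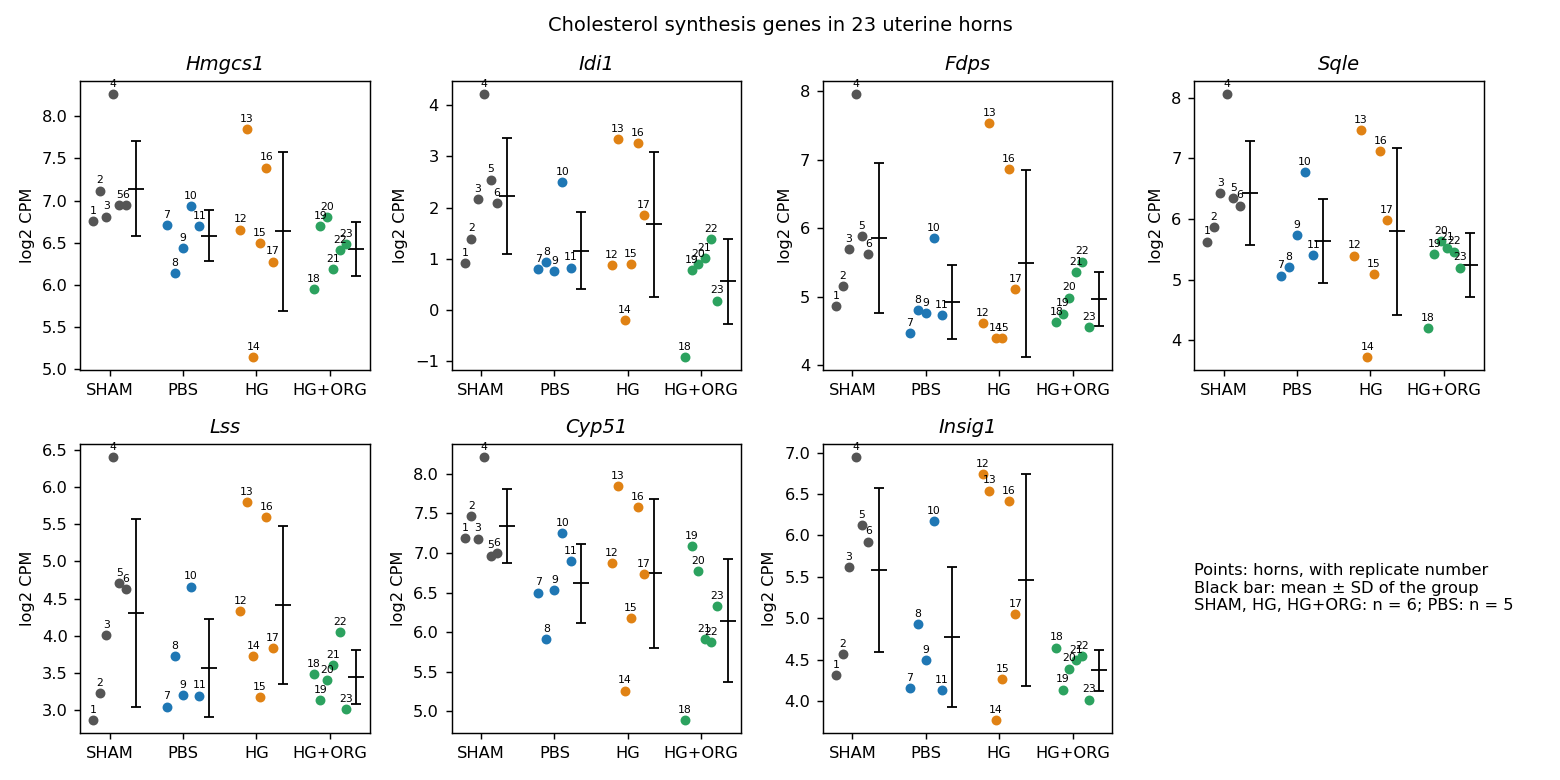
Level of each gene (log2 CPM, vertical axis) in every horn, by group, with replicate numbers beside the points and the mean ± SD as a bar. SHAM 4, HG 13, HG 16 and PBS 10 sit high in every panel, and no HG+ORG horn is among the 7 highest for any gene. For Insig1 the 6 HG+ORG horns lie between 4.02 and 4.65.

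The same few horns were high for all 7 genes. SHAM 4 ranked first of 23 for 7 of 7 genes. HG 13 had ranks 2 to 3 and HG 16 ranks 3 to 4, and PBS 10 was within the top 7 for 7 of 7. No HG+ORG horn was within the top 7 for any gene. At the other end, HG 14 was among the lowest 4 horns for 6 of 7 genes and HG+ORG 18 and HG+ORG 23 for 4 each. All 7 genes were above their own median over the horns in 4 of 6 SHAM, 1 of 5 PBS, 2 of 6 HG and 0 of 6 HG+ORG horns. The 4 SHAM horns include SHAM 5 and SHAM 6, whose profiles were very alike. Averaged over the 7 genes, SHAM 4 was 2.38, HG 13 was 1.85, HG 16 was 1.54 and PBS 10 was 0.96 log2 units above the gene medians, and HG 14 was -1.08 and HG+ORG 18 was -0.93 from them.

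**Figure D2:**
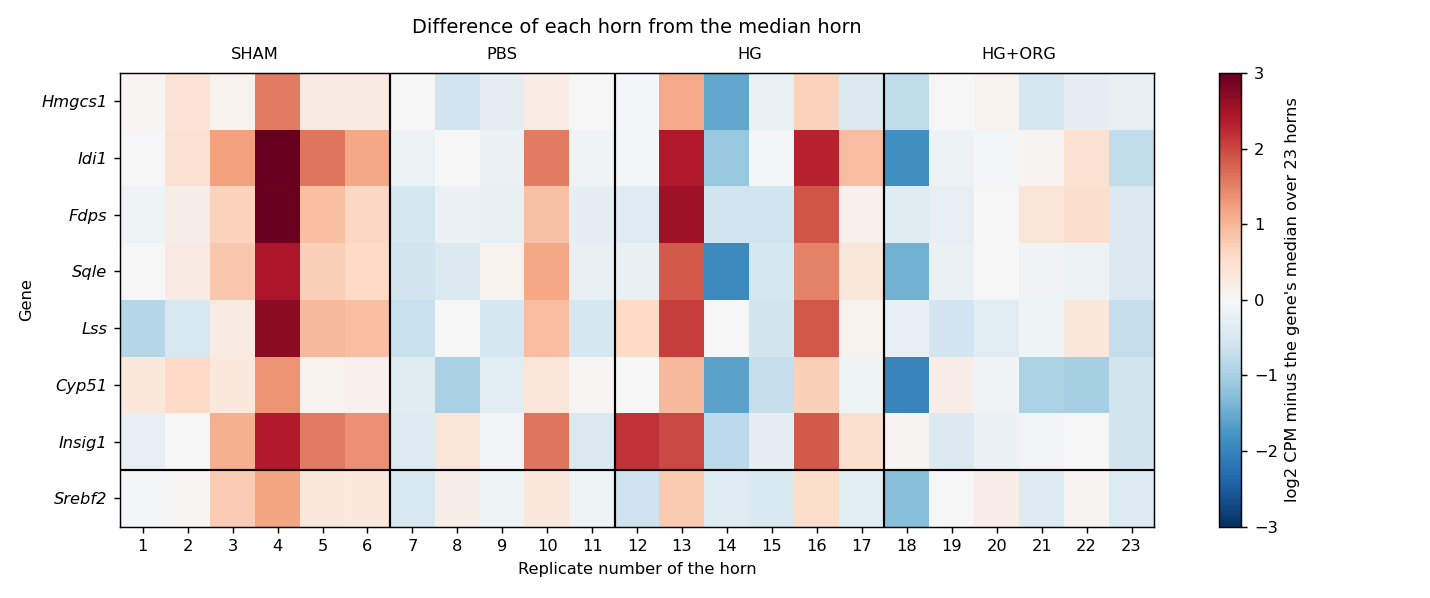
Each horn's difference from the gene's median over 23 horns (log2 CPM, colour), for the 7 genes above the line and for Srebf2 below it. SHAM 4, HG 13, HG 16 and PBS 10 are red in every row; Insig1 alone is also dark red in HG 12.

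Those horns also differed in what else they held. SHAM 4 had the lowest total count, HG 16 the next lowest (8259351), and SHAM 4 also had 1.57% mitochondrial counts and a cell-cycle score of 7.52, second highest of the 23. The high horns did not share these traits: HG 13 and PBS 10 had 13967674 and 11426751 counts. Mitochondrial counts were 4.21% in HG 13, 6.77% in HG 16 and 5.07% in PBS 10. HG 16, PBS 10, HG 13 and HG 17 had the highest smooth-muscle scores, 8.44, 7.48, 7.16 and 7.15, against 2.26 to 4.04 in SHAM. Of these, HG 17 was not high for the 7 genes: its median rank was 10, and it was within the top 7 for 0 of them. HG 14 had the highest endothelial score, 6.39, and the lowest estrogen-induced epithelial score, 5.50. HG 12 was within the top 7 for 2 of the 7 genes, Insig1 (6.74) and the enzyme Lss (4.33). It was not for the other enzymes, such as Fdps (4.61) or Idi1 (0.88). HG 12 had the highest adipocyte score, 9.39. In bulk tissue, a lower level can mean fewer cells of a type or less RNA per cell, and these cannot be told apart. What part these differences had in the levels of the 7 genes was not tested beyond the correlations and covariate fits given further on.

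The groups were compared with edgeR's quasi-likelihood test, all 23 horns in 1 fit, with Benjamini-Hochberg adjustment over 17708 genes. At an adjusted p under 0.05 it called 0 of the 7 genes in each of the 6 pairs of groups and 0 in the test for a difference among any of the 4. Over all genes the share called was 0% in each of these 7 tests. Genes with an unadjusted p under 0.05 numbered 385 for PBS against SHAM, 1996 for HG against SHAM, 1754 for HG+ORG against SHAM, 597 for HG against PBS, 1079 for HG+ORG against PBS, 1737 for HG+ORG against HG and 1786 (10.1%) for any of 4 groups. DESeq2 called 1, 281, 83, 0, 0, 162 and 278 genes in the same order, none of them among the 7, and limma-trend called 0. Since none of the differences in the 7 genes passed the threshold, they are given as sizes with their errors.

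HG+ORG against SHAM compared organoid-treated injured horns with SHAM horns. All 7 genes were lower in HG+ORG, by a median of -1.33 on the log2 scale, while the median of all tested genes was 0.06 and 56.3% of them were higher. The fitted log2 differences were -0.80 ± 0.33 (SE) for Hmgcs1, -2.02 ± 0.66 for Idi1, -1.29 ± 0.57 for Fdps, -1.37 ± 0.52 for Sqle, -1.33 ± 0.54 for Lss, -1.10 ± 0.38 for Cyp51 and -1.47 ± 0.50 for Insig1. The adjusted p of edgeR's test ran from 0.255 for Idi1 to 0.446 for Fdps. Unadjusted, 7 of 7 were lower with p under 0.05, where 1.82% of all genes were. The 7 are not independent of each other, since they vary together over the horns. They were also chosen with earlier results of these data known, so these shares are a description and no test. The size of the difference rests in good part on SHAM 4. Without it the median was -0.82. Then 3 of 7 genes had an unadjusted p under 0.05, where 207 of 17722 genes were lower by that mark. Without HG+ORG 18 the median was -1.26, and the smallest adjusted p of edgeR's test was 0.9996. In that fit 5 of 7 had an unadjusted p under 0.05, where 277 of 17664 genes were lower by it.

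PBS against SHAM compared injured horns given saline with SHAM. All 7 genes were lower in PBS, with a median of -0.90 where all genes had 0.02. The differences ran from -0.64 ± 0.35 (SE) for Hmgcs1 to -1.35 ± 0.68 for Idi1, and edgeR's adjusted p was 0.9995 for each. Fdps alone had an unadjusted p under 0.05, at -1.29 ± 0.60, against 0.655% of genes lower by that mark. Here 2 horns pulled in opposite directions. Without SHAM 4 the median was -0.48 and 0 of 7 were lower with an unadjusted p under 0.05, where 75 of 17722 genes were. Without PBS 10 the median was -1.39 and 6 of 7 were, where 125 of 18034 genes were. The count was 3 without SHAM 1, SHAM 2 or HG 14, where 150 of 17702, 163 of 17618 and 136 of 17630 genes were. It was 2 without SHAM 3, where 87 of 17612 genes were, and 0 without PBS 7, PBS 8, PBS 9 or PBS 11.

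For HG against SHAM the differences were small beside their errors, from -0.44 ± 0.63 (SE) for Idi1 to 0.02 ± 0.49 for Insig1, with a median of -0.38. Their direction was not stable. Insig1 was -0.0059 with the size factors of DESeq2 in the same fit. The median was 0.29 without SHAM 4, -0.69 without HG 13, -0.17 without HG 14, -0.24 without HG 15 and -0.11 with the epithelial score as a covariate. Without SHAM 4, Fdps was 0.58, Lss 0.68, Idi1 0.29 and Sqle 0.16, all higher in HG, and without HG 13 these 4 were -0.86, -0.42, -0.86 and -0.82.

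HG against PBS asked whether hydrogel alone differed from saline after the same injury. All 7 genes were higher in HG, with a median of 0.87 and a range from 0.26 ± 0.35 (SE) for Hmgcs1 to 1.06 ± 0.60 for Fdps, and 53% of all genes were higher. Hmgcs1 became -0.0489 without HG 13. Without HG 13 the median was 0.43, without HG 16 it was 0.57, and without PBS 10 it was 1.38. Without PBS 10, 3 of 7 were higher with an unadjusted p under 0.05, where 990 of 18034 genes were. Without SHAM 4, 2 of 7 were, where 437 of 17722 genes were. Without HG 14 or HG 15, 1 of 7 was, where 310 of 17630 and 656 of 17689 genes were. The smallest adjusted p of edgeR's test for any of the 7 was 0.991, and 0 had an unadjusted p under 0.05.

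HG+ORG against PBS gave small differences, lower in HG+ORG for 6 genes and at 0 for Fdps: -0.67 ± 0.67 (SE) for Idi1, -0.62 ± 0.52 for Insig1, -0.47 ± 0.53 for Sqle, -0.38 ± 0.40 for Cyp51, -0.22 ± 0.55 for Lss, -0.16 ± 0.35 for Hmgcs1 and -0.003 ± 0.59 for Fdps. None was as large as 2 SE, the median was -0.38, and 0 of 7 had an unadjusted p under 0.05. Without PBS 10 the median was -0.06, with Fdps at 0.31 and Lss at 0.17, and without HG+ORG 18 it was -0.22.

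HG+ORG against HG compared the hydrogel with and without organoids. All 7 genes were lower with organoids, with a median of -1.06 against 0.04 for all genes. Insig1 differed by -1.49 ± 0.50 (SE), Idi1 by -1.57 ± 0.65 and Lss by -1.26 ± 0.53, and these 3 had an unadjusted p under 0.05, where 4.63% of all genes were lower by that mark. Fdps was -1.06 ± 0.57, Sqle -0.98 ± 0.51, Cyp51 -0.67 ± 0.38 and Hmgcs1 -0.42 ± 0.33. The adjusted p of edgeR's test was 0.284 for Insig1 and higher for the others. The value rests on the 2 high HG horns: without HG 13 the median was -0.56 and without HG 16 it was -0.83. In each case 1 of 7 genes was under that mark, where 752 of 17536 and 684 of 17647 genes were lower by it. Without HG 14 the median was -1.25 with 6 of 7, where 579 of 17630 genes were. Without HG 15 or SHAM 4, 5 of 7 were under it, where 970 of 17689 and 837 of 17722 genes were lower.

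In the test for any of 4 groups, Idi1, Insig1 and Lss had an unadjusted p under 0.05 (0.0257, 0.0226 and 0.0428), with adjusted p of 0.397, 0.386 and 0.472 in edgeR. That count of 3 was 7 without HG 14, 6 without PBS 10, 5 without HG 15 and 1 without HG+ORG 23. Over all genes, the counts by that mark in these fits were 1352 of 17630, 2011 of 18034, 2040 of 17689 and 1725 of 17577. The comparisons share their control horns, so their directions are not independent of one another.

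**Figure D3:**
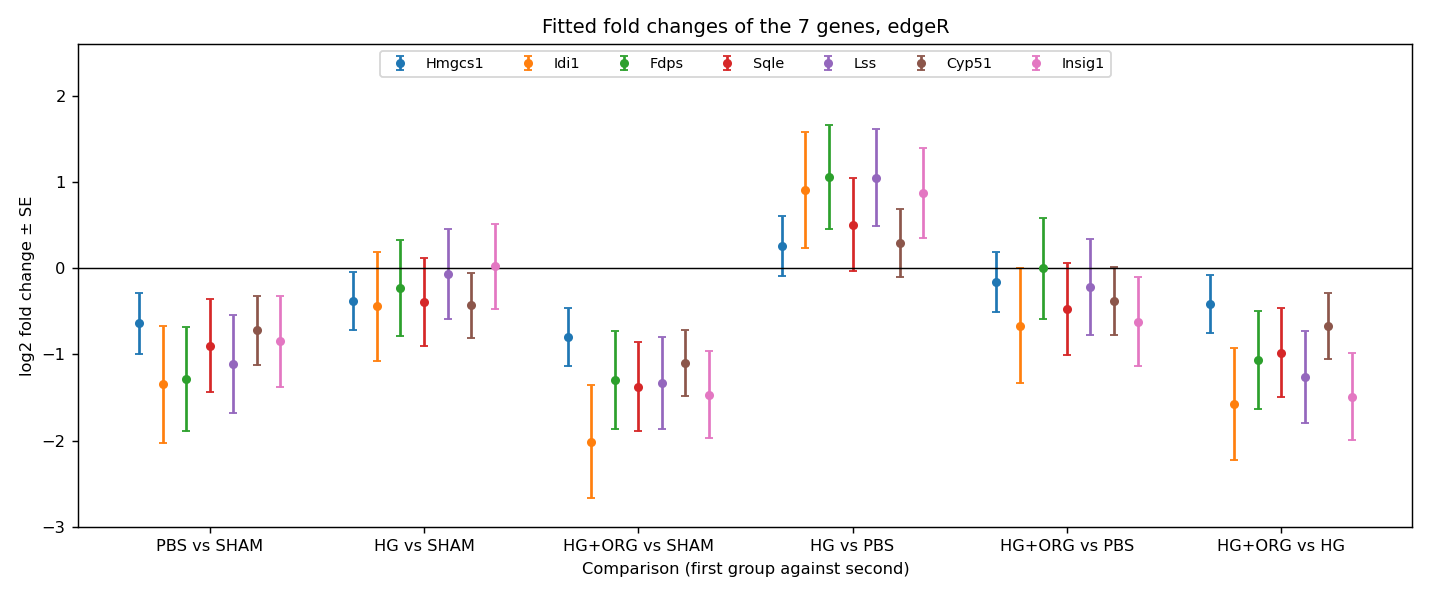
Fitted log2 fold change ± SE (vertical axis, edgeR) of each gene in the 6 comparisons, first group against second. All 7 points lie below 0 for PBS against SHAM, HG+ORG against SHAM and HG+ORG against HG, and above 0 for HG against PBS. In HG+ORG against PBS 6 lie below 0 and Fdps lies at it (-0.003); none passed the adjusted threshold.

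The 7 genes varied together from horn to horn. Over the 21 pairs of genes and 23 horns, Pearson's r ran from 0.55 to 0.96 with a median of 0.82, and Spearman's rho from 0.38 to 0.93 with a median of 0.74. After the mean of each group was subtracted, r ran from 0.47 to 0.96 with a median of 0.79, so the covariation was also present within groups. Without the 2 horns farthest from the median of each pair's first gene, r ran from 0.29 to 0.96 with a median of 0.77. The pairs share library and depth, and the genes were picked as targets of 1 factor, so r is given as a description without a p.

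Among the pairs, Sqle and Idi1 were closest (r = 0.96), followed by Fdps with Lss (0.92) and with Idi1 (0.91). Hmgcs1 was closest to Sqle (0.91) and Cyp51 (0.90), and Insig1 to Lss (0.89). Cyp51 and Lss were the least alike, at 0.55, and fell to 0.29 without the 2 farthest horns, so that pair rests on those horns. Insig1 with Cyp51 (0.62) and Lss with Hmgcs1 (0.66) were next.

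Genes outside the 7 were ranked by the mean of their r with the 7, over 15990 genes with a mean of at least 1 CPM, where the median gene had -0.01. Of the 14 other sterol enzymes, 11 had a mean r of at least 0.5, as 5.80% of all genes did, and their median was 0.69. Fdft1, the squalene synthase, had 0.87 at rank 2, and Nsdhl, a later sterol enzyme, 0.85 at rank 3. The 3 enzymes under that mark were Tm7sf2 (0.34), Pmvk (0.08) and Dhcr7 (0.01, rank 7648). Only 9 genes reached 0.8. Leaving out any 1 horn kept Fdft1 at rank 1 or 2 and Nsdhl at ranks 3 to 6. Srebf2, the gene for the factor itself and also its own target, was at rank 30 with 0.76, and Stard4, a sterol carrier, at rank 53 with 0.74.

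Outside the pathway lists, the highest were Gm3571 (0.83), the Fdps pseudogene named above, with r = 0.97 to Fdps itself, then Acsl3 (0.82), a fatty acid-activating enzyme, Ddx39 (0.81), an RNA helicase, Ssr1 (0.79), a part of the translocon at the endoplasmic reticulum, and Uchl3 (0.79), a deubiquitinase. The lowest were Tk2 (-0.83), E230025N22Rik (-0.83) and Hdac5 (-0.82). Of the 8 genes of efflux, storage and LXR, 7 were abundant enough to be ranked, and 7 of 7 had a mean r below 0, with a median of -0.48. Of these, 3 were at or below -0.5, as 7.70% of all genes were: Soat1, which esterifies cholesterol, at -0.81 and rank 15983, Abca1, an exporter, at -0.69 and rank 15816, and Abcg1 at -0.56. Apoe (-0.34), Nr1h3 (-0.27) and Mylip (-0.18, rank 10620) were nearer the middle. The 7 ranked genes of uptake and transport had a median of -0.09, and the lowest of them was Npc1, which moves cholesterol out of lysosomes, at -0.63 and rank 15628. Without any 1 horn, Soat1 stayed at ranks 15967 to 15990 and Abca1 at 15465 to 15949.

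**Figure D4:**
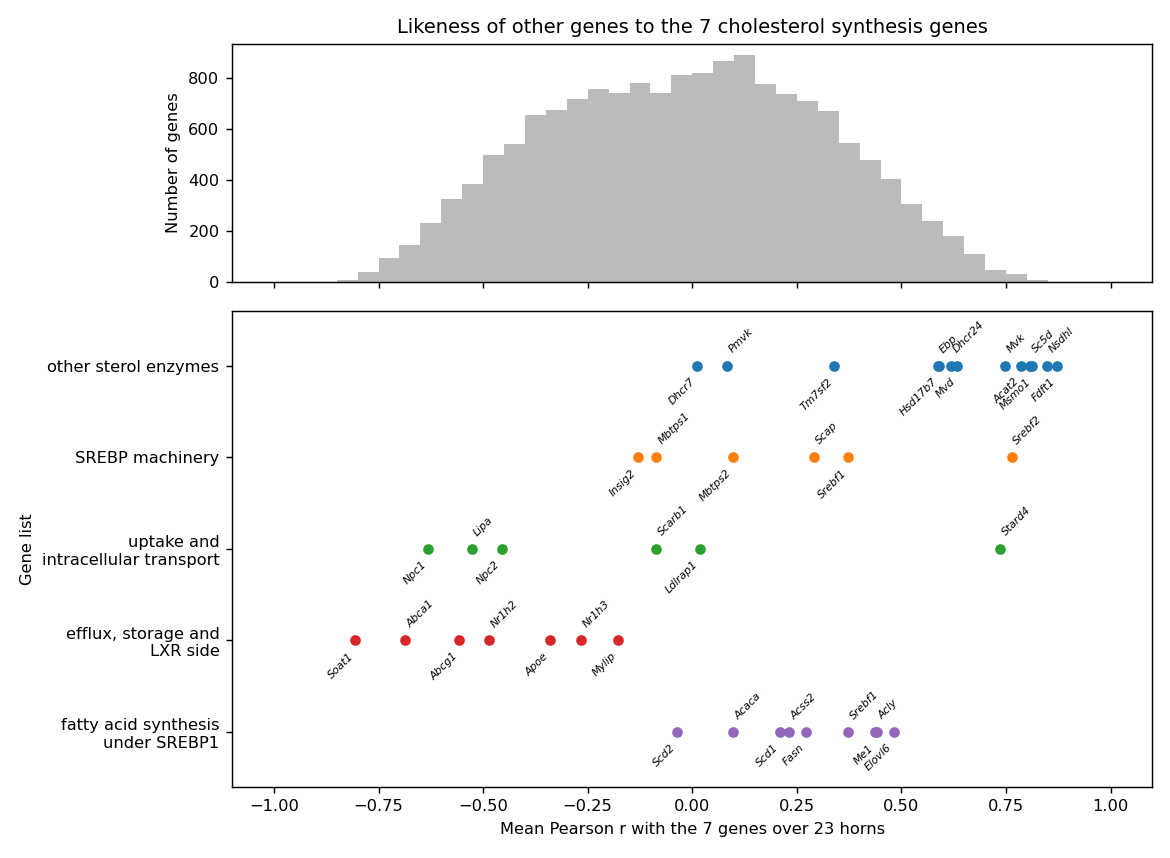
Upper panel, number of genes by mean Pearson r with the 7 genes over 23 horns; lower panel, most genes of 5 pathway lists on the same axis. Fdft1 and Nsdhl lie at the right end, at 0.87 and 0.85, Srebf2 at 0.76, and Soat1, Abca1 and Npc1 at the left, from -0.81 to -0.63.

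Srebf2 followed the same horns and spanned a narrower range over the 23 horns than each of the 7 genes. Its log2 CPM was 7.21 to 8.42 in SHAM and 5.97 to 7.43 in HG+ORG, with a difference of -0.73 ± 0.28 (SE, edgeR adjusted p = 0.356).

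The wider pathway was read from 5 lists, chosen like the 7 genes with earlier results of these data known. In each comparison, 0 genes of any list passed the adjusted threshold. Of 14 other sterol enzymes, 14 were lower in HG+ORG than in SHAM, with a median log2 difference of -0.71. Of these, 7 had an unadjusted p under 0.05, where 1.82% of all genes were lower by that mark. In PBS 14 were lower than in SHAM (-0.70), and in HG 13 were lower than in SHAM (-0.19). Against PBS 12 were higher in HG (0.42), and 13 were lower in HG+ORG than in HG (-0.51). Without SHAM 4, 13 of 14 were lower in HG+ORG than in SHAM, with a median of -0.48. Then 2 had an unadjusted p under 0.05, where 207 of 17722 genes were lower by that mark. In that setting 12 were lower in PBS than in SHAM, with a median of -0.29. In HG against SHAM the direction rested on single horns: without SHAM 4, 7 were higher and 7 lower, with a median of 0.10, and without HG 13 it was -0.46. Without HG 13 the median was also 0.14 for HG against PBS and -0.26 for HG+ORG against HG. Among them Acat2, which makes acetoacetyl-CoA, differed by -1.05 ± 0.38 (SE) and Sc5d, a late desaturase, by -0.69 ± 0.24 in HG+ORG against SHAM, with edgeR adjusted p of 0.321 and 0.284. Of the 6 genes of SREBP control, 5 were lower in HG+ORG than in SHAM (median -0.28), among them Srebf2 and Mbtps2, a protease that frees SREBP, at -0.32 ± 0.13 (SE).

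Of 8 uptake and transport genes, 5 were higher and 3 lower in HG+ORG than in SHAM, with a median of 0.16. That median moved by over 1.5 times, or changed sign, when 1 of 6 horns was left out (SHAM 3, SHAM 4, SHAM 6, HG+ORG 18, HG+ORG 22 or HG+ORG 23). Without HG+ORG 18 only 7 of the 8 genes passed the filter on low counts, and 2 of them were higher and 5 lower; without SHAM 4, again with 7 genes, 4 were higher and 3 lower. They went apart: Stard4 was -0.88 ± 0.32 (SE), and Lipa, the lysosomal acid lipase that frees cholesterol from lipoproteins, was 2.88 ± 0.89 (edgeR adjusted p = 0.338 and 0.236). Lipa was 9.91 log2 CPM in HG+ORG 18, against 4.47 to 5.62 in the other 5 HG+ORG horns. Of 8 genes of efflux, storage and LXR, 7 were higher in PBS than in SHAM (median 0.48) and 7 in HG than in SHAM (0.495). In HG+ORG 8 were higher than in PBS (0.40), but without HG+ORG 18, 2 were higher and 6 lower (-0.22). In HG+ORG 8 were also higher than in SHAM, with a median of 1.33. Of these 8, 4 had an unadjusted p under 0.05, where 1432 of 17708 genes were higher by that mark. Without HG+ORG 18 the median against SHAM was 0.24 and 0 of 8 were under that mark, where 331 of 17664 genes were higher by it. Apoe, the lipoprotein that carries exported cholesterol, was 3.56 ± 0.99 (SE), and Abcg1, an exporter, 3.54 ± 1.06, with edgeR adjusted p of 0.216 and 0.226. HG+ORG 18, the horn with the highest macrophage score, had the highest Apoe (13.7) and Abcg1 (8.72) of all, and SHAM 4 had the lowest Abcg1, with 1 count.
Of 9 fatty acid synthesis genes, which answer to SREBP1, 9 were lower in HG+ORG than in SHAM (median -1.54) and 8 were higher in HG than in PBS (1.59). Without HG 12 the second of these did not hold: 4 were higher and 5 lower in HG, with a median of -0.0028. Acss2, which activates acetate, was -1.66 ± 0.63 (SE) and Scd1, a desaturase abundant in fat, -4.06 ± 1.51 in HG+ORG against SHAM. Among SHAM horns, SHAM 5 and SHAM 6 stood apart for both genes, with 11.9 and 11.5 log2 CPM of Scd1 against 1.55 to 7.86 in the other 4, and 6.80 and 6.35 of Acss2 against 3.51 to 4.82. These 2 horns, whose profiles were very alike, also had the highest adipocyte scores of SHAM, 7.27 and 6.85. The HG+ORG horns, with 4.13 to 7.33 of Scd1 and 3.12 to 4.84 of Acss2, overlapped the other 4 SHAM horns. Without SHAM 5, 9 of 9 genes were lower in HG+ORG than in SHAM, with a median of -1.03. Then 2 had an unadjusted p under 0.05 instead of 7, where 362 of 17603 genes were lower by that mark. SHAM 6 stayed in that fit. No fit left out both horns, so how far the differences rest on them together was not tested. HG 12, with the highest adipocyte score of all, had the highest Scd1 (13.2) and Acss2 (7.44). What part fat tissue had in these values was not tested.

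The 7 genes were set against the scores of 10 marker lists over 23 horns, in 70 relations, with permutation tests of 100000 resamples, two-sided. None passed Benjamini-Hochberg adjustment, for Pearson's r or for Spearman's rho. The epithelial score had r from 0.11 to 0.56 with a median of 0.38 (smallest adjusted permutation p = 0.211) and rho with a median of 0.20. The cell-cycle score had a median r of 0.26 and a median rho of 0.50 (smallest adjusted permutation p = 0.133 for rho). That score was 1.04 in SHAM 3 and 1.73 in HG+ORG 21, against 5.2 to 7.8 in the other horns. Smooth muscle had r from 0.25 to 0.41, adipocytes from 0.23 to 0.52, with Insig1 at the top, macrophages from -0.37 to -0.12 and neutrophils from -0.52 to -0.20. Without the 2 farthest horns the epithelial r ran from -0.01 to 0.46 and the neutrophil r from -0.45 to 0.05. With the epithelial score as a covariate, the median difference of HG+ORG from SHAM was -1.11. Then 5 of 7 genes had an unadjusted p under 0.05, where 200 of 17708 genes were lower by that mark. With the cell-cycle score the median was -1.15 with 6 of 7, where 467 of 17708 genes were lower. Horns of these groups had outlying scores: HG+ORG 18 for epithelium, SHAM 3 and HG+ORG 21 for cell cycle. What these fits give without those horns was not tested.

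**Figure D5:**
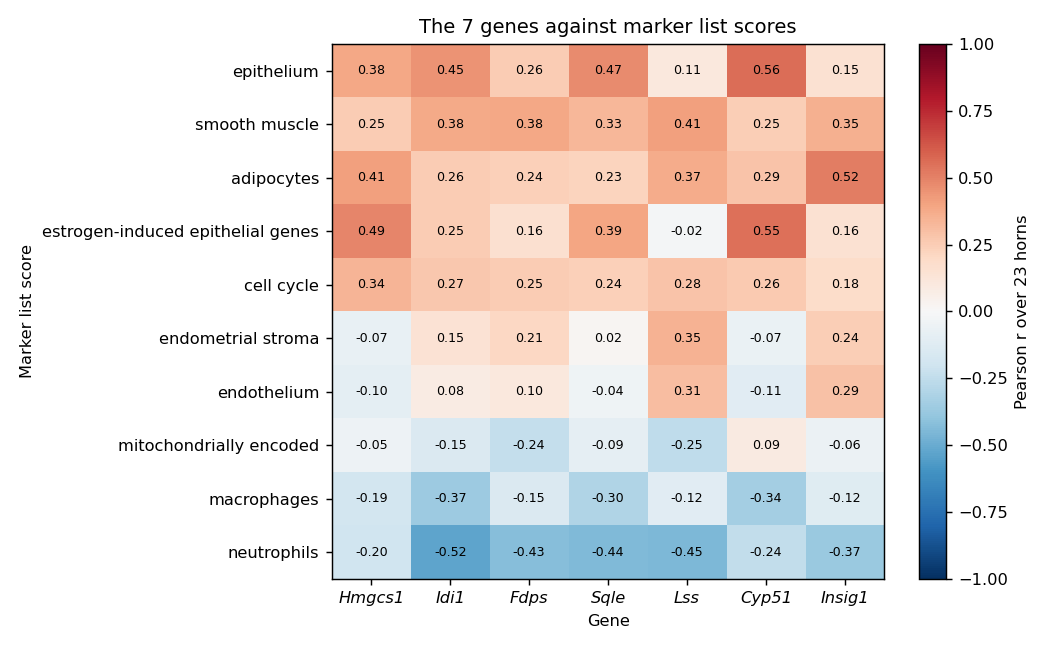
Pearson's r over 23 horns (number and colour) of each gene, in columns, with the mean log2 CPM of each marker list, in rows. Epithelial, smooth-muscle, adipocyte and cell-cycle rows are positive throughout, up to 0.56. Macrophage and neutrophil rows are negative throughout, down to -0.52. None passed adjustment over the 70.

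Markers of tissue outside the endometrium were checked as well. Of 6 markers of steroid-making ovarian or adrenal cells, which also make cholesterol, 5 had no row in the table and only Star was tested. Of 3 hepatocyte markers, Apoa1 had no row and the other 2 were tested. The table was filtered before deposit, so a missing row does not mean that a gene was silent. Neither list was scored, and whether such tissue was present in any horn was not tested.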

How the data were processed

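Raw read counts per gene were deposited for 23 endometrial libraries. HISAT2 2.2.1 (aligner), featureCounts 2.0.3 (read counting), Trimmomatic 0.39 (trimming) and build GRCm39 are named by the submitters' processing notes, beside DESeq2 1.42.1. Settings, annotation and strand handling are not stated there. Per the labels' protocols, the library kit keeps strand. In every feature at least 3 libraries reach 10 counts, so the table was filtered before deposit. Of 18682 features, 341 had no symbol.

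Groups came from sample titles. Counts were fitted with edgeR 4.0.16 (R 4.3.3; TMM, filterByExpr, quasi-likelihood F test, 1 fit of all 23 horns), with Benjamini-Hochberg adjustment at 0.05 over 17708 genes. SE is the absolute log2 fold divided by the square root of F. The script was tested on simulated data. Alternatives were RLE size factors, no filter, compared groups only, epithelial or cell-cycle score as covariate, SHAM 5 and SHAM 6 summed (their profiles were very alike), limma-trend 3.58.1, DESeq2 1.42.0 and each horn left out.

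The members and lists were chosen with earlier results of these data known. Named genes were the 7, Srebf2, the 2 genes of each list with the smallest p for any of 4 groups, and the 5 most and 3 least alike genes outside the lists. Genes named for a single horn or for their rank in likeness within the lists (Fdft1, Nsdhl, Tm7sf2, Pmvk, Dhcr7, Soat1, Abca1, Nr1h3, Mylip, Npc1) were chosen after their values were seen. Sequences are RefSeq's. Pseudogenes were found with blastn against GENCODE M21 transcripts. A few pathway genes are not reported here by name; counts over the lists include them.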

Additional observations from a re-analysis of the deposited data

Results flagged for a closer look

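In 28 sets of values (7 genes in 4 groups), the highest or lowest horn was tested for its distance from the rest of its group with Dixon's criterion, and 6 stood out; chance alone gives about 1 in 20 sets. SHAM 4 was far above the other SHAM horns for Hmgcs1 (8.26 log2 CPM, next 7.12), Sqle (8.06, next 6.43) and Fdps (7.96, next 5.89). PBS 10 was far above the other PBS horns for Idi1 (2.50, next 0.93) and Fdps (5.86, next 4.80). HG+ORG 18 was far below its group for Sqle (4.20, next 5.20). The 7 genes vary together, and the 6 values come from 3 horns. No HG horn met the criterion.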

How the results depend on the processing

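Each of the 42 differences of the 7 genes (6 comparisons) was recomputed under 31 alternatives. Of these 1302 values, 0 passed the threshold and 31 changed sign, in 8 of the 42 differences, and 34 never changed sign. Many of the alternatives leave out a horn of neither compared group, which moves a difference little. The median for HG+ORG against SHAM, for one, stayed at -1.33 without any 1 PBS horn. The share that changed sign is therefore no measure of stability. Insig1 in HG against SHAM was -0.0059 with RLE size factors, -0.12 with limma-trend and -0.0064 with DESeq2, and Lss was 0.10 with limma-trend. Fdps in HG+ORG against PBS was 0.11 with the epithelial covariate, 0.12 with the cell-cycle covariate, 0.0137 with SHAM 5 and SHAM 6 summed and 0.0406 with limma-trend.

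With 1 horn left out, the log2 differences in HG against SHAM ran from -0.86 to 0.58 for Fdps, -0.86 to 0.29 for Idi1, -0.24 to 0.39 for Insig1, -0.42 to 0.68 for Lss and -0.82 to 0.16 for Sqle. In HG+ORG against PBS they ran from -0.11 to 0.31 for Fdps and -0.35 to 0.17 for Lss, and in HG against PBS from -0.0489 to 0.45 for Hmgcs1.

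Over all genes, edgeR's counts of 0 became 386 for HG against SHAM with only those groups fitted, and with DESeq2 1 (PBS against SHAM), 281 (HG against SHAM), 83 (HG+ORG against SHAM), 162 (HG+ORG against HG) and 278 (any of 4 groups). Leaving out 1 horn gave 0 to 1 for HG+ORG against HG (1 without PBS 10) and 0 to 39 for any of 4 groups (39 without HG+ORG 22). The cause was not tested. The number of the 7 genes at an unadjusted p under 0.05 also moved with the method. For HG+ORG against SHAM it was 5 with limma-trend (7 in edgeR and in DESeq2). Over all genes, 444 of 17708 were lower by that mark with limma-trend and 484 of 17380 with DESeq2. For PBS against SHAM the number was 0 with limma-trend, and 3 with DESeq2 or with only those groups fitted (1 in edgeR). Of all genes, 61 of 17708, 204 of 17380 and 184 of 16249 were lower by that mark there. For HG+ORG against HG the number was 1 with limma-trend (3 in edgeR), where 826 of 17708 genes were lower. For any of 4 groups it was 6 with DESeq2, where 2087 of 17381 genes were under that mark. With limma-trend it was 1 (3 in edgeR), where 984 of 17708 genes were. No paired analysis was possible because the labels do not tie horns to mice. Idi1, at 3 to 149 counts, is the gene whose depth limits its precision most.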
